A study of Lepidobatrachus laevis with 14 samples.

Results

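Intestinal brush border and absorption genes were followed in RNA sequencing libraries of the embryonic stomach of Lepidobatrachus laevis, Budgett's frog. The set was defined by 10 human UniProt entry names, because the count table lists reads against human protein entries. It holds villin (VIL1, entry VILI), the hydrolases lactase (LCT, entry LPH), sucrase-isomaltase (SI, entry SUIS), aminopeptidase N (ANPEP, entry AMPN) and meprin A alpha (MEP1A), the lipid carriers FABP2 (entry FABPI), FABP1 (entry FABPL) and APOA4, and the homeobox factors CDX1 and CDX2. Of the 10 entries 8 had a row among the 26940 rows of the table, with 1 row each, and all 8 stayed among the 23271 rows left after the filter on low counts. CDX1 and SI had 0 rows and were not measured here. Every library came from wild-caught, wild-type animals at Gosner stage 19. The 7 left and 7 right libraries each comprised 5 made from 1 stomach, called single-stomach libraries here, and 2 that combined the same side of 5 stomachs, called pools. Pools and single-stomach libraries also differed in facility, and these differences cannot be told apart. The labels do not say that left and right libraries of one title came from 1 animal. The spread between libraries, which may be partly technical, is what each p-value is measured against.

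Absorptive cells of the intestine, the enterocytes, carry a brush border of microvilli. Actin-bundling proteins such as villin build its core, and enzymes anchored in its membrane finish the digestion of sugars and peptides. Fatty acids that enter the cell are held by small binding proteins and leave it in lipoprotein particles. Caudal-type homeobox factors set intestinal as against gastric identity in mammals, where stomach epithelium normally lacks them. Several of these genes are also used outside the intestine: FABP1 and, in many vertebrates, apolipoproteins are made by the liver, and villin, aminopeptidase N and meprin by kidney tubules.

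Total counts ran from 21525694 to 62707669 in the 10 single-stomach libraries and from 12174670 to 20022774 in the 4 pools. Levels are given in CPM, reads relative to the TMM-normalized size of each library. Gene lengths were not used, so levels are not compared between genes. The stomach factors SOX2, BARX1 and NKX3-2 (entry NKX32) were present in single-stomach libraries, at 57.6 ± 45.7, 82.5 ± 49.9 and 34.5 ± 13.9 CPM (SD, n = 10). Of the markers of differentiated stomach glands and mucosa, ATP4A, a subunit of the acid pump, was at 0.387 to 27.2 CPM with a median of 0.774, GKN1 reached at most 0.0668 CPM and PGC (entry PEPC) at most 0.134 CPM in these libraries. The single-stomach libraries had been seen in these data to fall into replicates 1 to 3 and replicates 5 and 6, so values are also given for these sets, without a test between them. In bulk tissue, fewer cells of a type and less RNA per cell cannot be told apart.

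The strongest contrast of these genes was between pools and single stomachs. Of the 8 measured genes, 6 were higher in the pools (edgeR quasi-likelihood test with side as a term, adjusted p under 0.05 over all rows), 0 were lower, and ANPEP and MEP1A did not pass. This test took left and right libraries of one title as independent, so its errors and p-values may be too small. Of all rows tested, 12.7% were called higher in the pools and 17.7% lower, 30.4% in all (41.4% at an unadjusted p under 0.05). Without scaling of the totals the same number of members was called, and 26.3% of the called rows were higher in the pools, against 41.7% with it. In the same 6 genes all 4 pools lay above all 10 single-stomach libraries, a pattern that 6.85% of rows tested shared. The median log2 fold of the 8 genes was 2.25, against -0.10 over all rows. VIL1, which enters both counts of 6 and this median, was tested only because of its levels in the pools. It is therefore no independent support for a difference.

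VIL1, the actin bundler of the microvillus core, was close to the detection limit in single stomachs. Its single-stomach levels had a lowest value of 0.104, a median of 0.239 and a highest of 0.647 CPM, from 4 to 16 reads in each library. The pools held 4.85 and 12.2 CPM on the left and 6.71 and 13.1 CPM on the right. The lowest pool was thus 7.5 times the highest single-stomach library. The log2 fold of pools over single stomachs was 5.10 ± 0.41 (SE; adjusted p = 3.8e-06). Too few single-stomach libraries reached the level of the filter on low counts, so VIL1 was tested only because of its levels in the pools.

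LCT, the lactase of the brush border membrane, was the steadiest member among single stomachs. It ran from 3.96 through a median of 4.47 to 5.33 CPM there, a coefficient of variation of 11.6%. The pools reached 18.2 and 29.6 CPM on the left and 12.2 and 25.0 CPM on the right. All pools were higher, and within each side the second pool exceeded the first. The log2 fold was 2.21 ± 0.18 (SE; adjusted p = 4.42e-06), and the sets of replicates 1 to 3 and 5 and 6 had means of 4.60 and 4.54 CPM.

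The peptidases stayed low in both kinds of library. ANPEP, which trims peptides from their amino end, ran from 0.0862 through a median of 0.567 to 2.41 CPM in single stomachs. The pools held 1.47 CPM and 0 counts on the left and 0.147 and 0.0721 CPM on the right, and the count of 0 allows up to 0.227 CPM. High and low ANPEP libraries thus occurred in both sources, and its log2 fold of -1.18 ± 1.03 (SE; edgeR adjusted p = 0.414) had an error nearly as large as itself. MEP1A, a metalloprotease, had at most 19 reads in any library. It ran from 0.0334 through 0.12 to 0.368 CPM in single stomachs, and the pools held 0 counts (up to 0.260 CPM) and 0.985 CPM on the left, and 0.196 and 0.0721 CPM on the right. Its log2 fold was 0.79 ± 0.80 (SE; edgeR adjusted p = 0.490), and it turned to -0.61 without the left pool 2, which held its highest level.

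FABP2, the fatty acid binding protein of enterocytes and a marker of intestinal epithelium in Xenopus, separated all 3 library sets. Replicates 1 to 3 held 1.63, 0.266 and 0.0276 CPM on the left and 1.34, 0.388 and 0.283 CPM on the right. Replicates 5 and 6 held 2.18 and 2.36 CPM on the left and 2.36 and 2.27 CPM on the right. The pools held 21.1 and 20.2 CPM on the left and 14.2 and 19.8 CPM on the right. The 3 sets did not overlap, and replicates 5 and 6 lay close together on both sides while replicates 1 to 3 spread widely. Of all rows tested, 18.8% lay higher in replicates 5 and 6 than in all of replicates 1 to 3. The pools exceeded single stomachs by a log2 fold of 3.81 ± 0.63 (SE; edgeR adjusted p = 0.000505).

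FABP1, the related carrier shared by intestine and liver, was detected by at least 879 reads in every library. Its single-stomach levels ran from 34.7 through 56.4 to 104 CPM. The pools held 220 and 371 CPM on the left and 217 and 330 CPM on the right. The pools again lay above all single stomachs, with a log2 fold of 2.29 ± 0.25 (SE; edgeR adjusted p = 2.89e-05), and the highest single-stomach library was right replicate 1.

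APOA4, an apolipoprotein that mammalian enterocytes secrete with absorbed fat, had the widest spread of these 8 genes among single stomachs, a coefficient of variation of 160%. Replicates 1 to 3 held 14.8, 11.7 and 3.23 CPM on the left and 52.1, 6.08 and 6.33 CPM on the right. Replicates 5 and 6 held 0.740 and 0.0520 CPM on the left and 2.56 and 0.267 CPM on the right. The pools held 744 and 942 CPM on the left and 644 and 885 CPM on the right. APOA4 therefore had the opposite order of the single-stomach sets from FABP2, with replicates 5 and 6 all below replicates 1 to 3, as were 18.3% of rows tested. The log2 fold of pools over single stomachs, 6.54 ± 1.07 (SE; edgeR adjusted p = 0.000488), ranked 4 among 23271 rows. It was 5.83 against replicates 1 to 3 alone and 9.92 against replicates 5 and 6 alone. APOA4 belongs to a family of related apolipoproteins, and how reads of frog paralogs were divided among human entries is not given in the sources used here.

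CDX2, the caudal-type factor of intestinal identity, was present in every library with at least 418 reads. Replicates 1 to 3 held 36.1, 21.8 and 11.6 CPM on the left and 55.3, 25.4 and 21.1 CPM on the right. Replicates 5 and 6 held 46.1 and 43.4 CPM on the left and 49.2 and 45.0 CPM on the right. The pools held 87.9 and 98.1 CPM on the left and 61.3 and 81.2 CPM on the right. The pools were higher by a log2 fold of 1.22 ± 0.32 (SE; edgeR adjusted p = 0.00962), the smallest of the 6 called, and the lowest pool was only 1.11 times the highest single-stomach library.

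**Figure D1:**
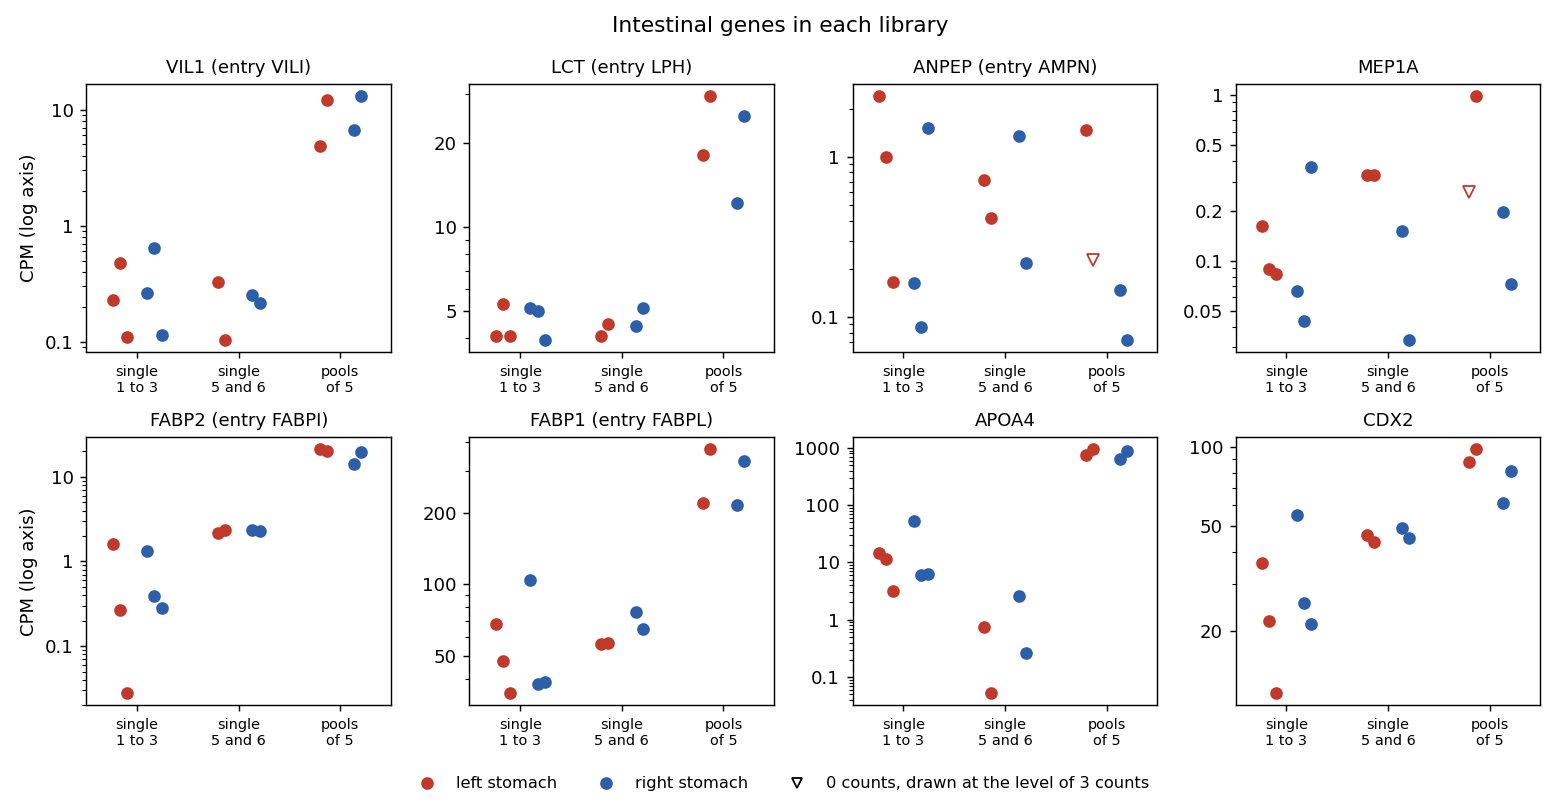
Level of each measured gene in each of the 14 libraries, in CPM on log axes that differ between panels, by library set and side; open triangles mark libraries with 0 counts, drawn at the level of 3 counts. The 4 pools lie above all 10 single-stomach libraries in VIL1, LCT, FABP2, FABP1, APOA4 and CDX2, and not in ANPEP and MEP1A.

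Between the sides 0 of the 8 genes were called. This was the contrast of the 2 sides of the stomach, adjusted for library source, with left and right libraries of one title taken as independent. The edgeR test called 0% of all rows, DESeq2 called 0 rows, and by edgeR 1.06% had an unadjusted p under 0.05, none of these genes among them. Left and right libraries overlapped in all 8, and 0.00859% of rows tested did not overlap. Log2 folds of left over right were 0.03 ± 0.18 for LCT, 0.05 ± 0.61 for FABP2, -0.11 ± 0.30 for CDX2, -0.17 ± 0.24 for FABP1 and -0.21 ± 0.41 for VIL1 (SE; adjusted p = 1 for each). The larger values had the larger errors, 0.88 ± 0.83 for ANPEP, 0.91 ± 0.71 for MEP1A and -0.78 ± 0.97 for APOA4 (SE; adjusted p = 1 for each). These errors leave room for side differences in either direction, so the absence of a call does not show equal levels. Whether the side difference itself varied between pools and single stomachs was tested by the product term, and 0 of the 8 genes passed in edgeR, as did 0% of rows, with 7.67% of rows at an unadjusted p under 0.05. DESeq2 called 144 rows and 0 of the 8 genes.

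**Figure D2:**
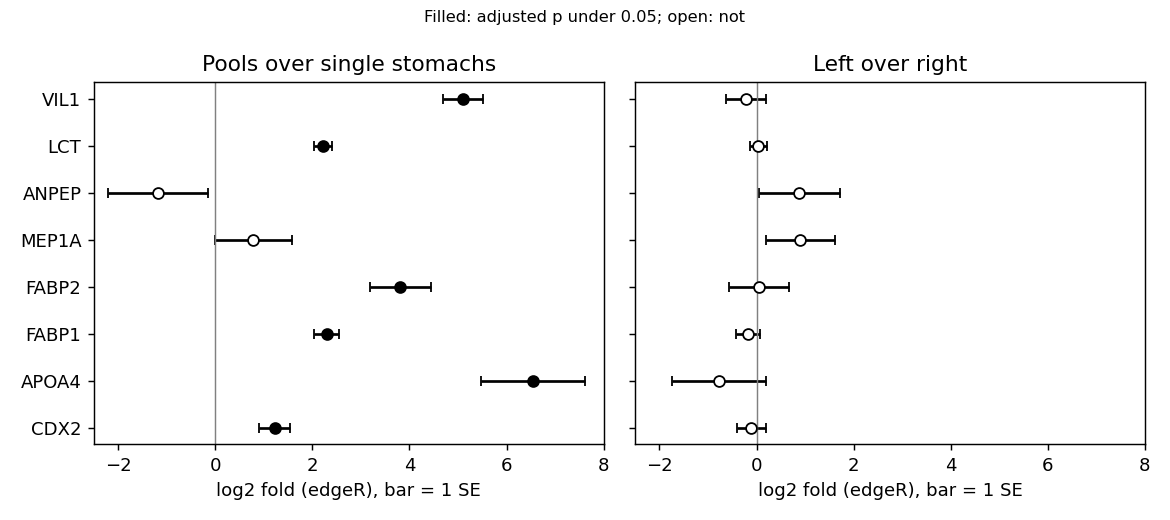
Log2 folds from edgeR with bars of 1 SE for the 8 measured genes, pools over single stomachs at left and left over right at right, on the same scale. The 6 filled points, all of pools over single stomachs, have an adjusted p under 0.05, and 0 points of left over right do.

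Within the 5 single-stomach title pairs, the left and right libraries that share a title stem, CDX2 had the same direction throughout. Its ratio of left to right was 0.652, 0.858, 0.547, 0.939 and 0.963 in pairs 1, 2, 3, 5 and 6. The left was lower in 5 of 5 pairs, which 3.78% of rows tested also showed, while 3.53% were higher on the left in all pairs. In the pools the order was the other way, and both left pools exceeded both right pools. In the single-stomach libraries with the pair as a block the log2 fold was -0.36 ± 0.13 (SE; edgeR adjusted p = 0.799), and DESeq2 gave -0.37 ± 0.13 (SE; adjusted p = 0.325). In the pools alone it was 0.35 ± 0.26 (SE; edgeR adjusted p = 1).

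APOA4 and FABP1 were lower on the left in the same 4 of 5 pairs. APOA4 had ratios of 0.283, 0.511, 0.289 and 0.194 in pairs 1, 3, 5 and 6 and 1.93 in pair 2. FABP1 had ratios of 0.656, 0.900, 0.738 and 0.870 in those pairs and 1.26 in pair 2. A left value below the right in at least 4 of 5 pairs was found in 19.1% of rows tested. The summed level of 10 liver markers, among them the fibrinogen chains, was also lower on the left in 5 of 5 pairs, with ratios from 0.531 to 0.840. Most of this sum came from the fibrinogen chains FGA, FGB and FGG. In single stomachs their means were 2164, 740 and 881 CPM, and that of the sum 4530 CPM. The summed level of the stomach markers had the opposite direction, the left exceeding the right in 5 of 5 pairs, with ratios of 1.29, 1.53, 1.15, 1.83 and 1.05. In the pools both sums had the reverse order. There the liver sum was 24830 and 26500 CPM on the left and 19140 and 23920 CPM on the right. The stomach sum was 187 and 100 CPM on the left and 197 and 249 CPM on the right. Over all libraries 3 of the 7 tested stomach markers had a positive log2 fold of left over right and 4 a negative one. The summed enterocyte transcription factors were lower on the left in 5 of 5 pairs, with ratios from 0.898 to 0.992. Their sum in the pools was 938 and 795 CPM on the left and 713 and 780 CPM on the right. VIL1 matched the direction of the liver sum in 4 of 5 pairs, as APOA4 and FABP1 did, and CDX2 in 5. LCT and FABP2 matched it in 3, ANPEP in 2 and MEP1A in 1. The part of the liver and stomach sums in the ratios of APOA4, FABP1 and CDX2 was not tested.

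ANPEP and MEP1A swung most widely within pairs. ANPEP was 14.8 and 11.7 times as high on the left in pairs 1 and 2, at 74 against 5 and 34 against 2 reads, and its ratio was 1.91 in pair 6. The ratio was 0.109 in pair 3 and 0.531 in pair 5, so the sides changed order between title pairs. The summed level of 12 pronephros (embryonic kidney) markers was higher on the left in the same pairs 1, 2 and 6, with ratios of 3.87, 1.62 and 1.35, and lower in pairs 3 and 5, at 0.795 and 0.857. MEP1A exceeded its right value in 4 of 5 pairs, on 1 to 19 reads per library, and matched the direction of that sum in 4 of 5. A left value above the right in at least 4 of 5 pairs was found in 19.3% of rows tested, and the part of kidney tissue in these ratios was not tested. The share of all rows that match the direction of the pronephros sum was not counted, so how common such matches are is not known. VIL1, also known from kidney tubules, had 1 of 5 ratios above 1 and matched the direction of the pronephros sum in 1. FABP2, not named above as a kidney gene, matched that direction in 4 of 5 pairs, as many as MEP1A. APOA4 and FABP1 matched it in 3, and LCT and CDX2 in 2. The matches thus did not set the kidney genes apart from the other members.

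LCT and FABP2 showed no common direction within pairs. LCT ratios ran from 0.791 in pair 1 to 1.06 in pair 2, with 2 of 5 above 1. FABP2 ratios were 1.22, 0.686, 0.925 and 1.04 in pairs 1, 2, 5 and 6. Its ratio of 0.0978 in pair 3 rests on 1 read on the left and 10 on the right.

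**Figure D3:**
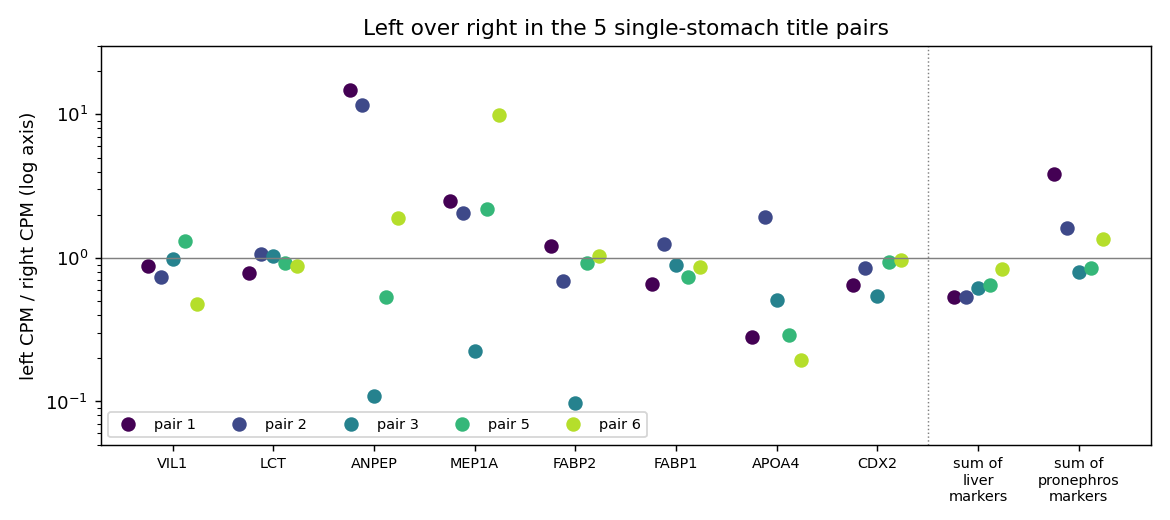
Ratio of left to right CPM on a log axis for the 5 pairs of single-stomach libraries, for the 8 measured genes and for the summed liver and pronephros markers. CDX2 and the liver sum lie below 1 in all 5 pairs, and ANPEP lies on the same side of 1 as the pronephros sum in each pair. The share of all rows with that match was not counted.

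Other genes of absorptive cells were read from lists of brush border structure, hydrolases, transporters, lipid absorption and enterocyte transcription factors. Across all rows tested, 12.7% were called higher in the pools and 17.7% lower. The lipid absorption list moved most uniformly: 11 of its 12 tested entries were higher in the pools and 0 lower (edgeR, adjusted p under 0.05), with a median log2 fold of 2.08. Among the entries called higher, FABP6, a relative of FABP1 and FABP2, was tested only because of its levels in the pools. APOA1 rose from 305 ± 307 CPM in single stomachs (SD, n = 10) to 7873 ± 3090 CPM in pools (SD, n = 4), and APOB, the scaffold of chylomicrons and very low density lipoproteins, from 199 ± 207 to 3939 ± 521 CPM, with edgeR adjusted p of 4.7e-05 and 0.000205. SAR1B, a GTPase needed to export chylomicrons, had a log2 fold of 3.31 ± 0.53 (SE) and the fatty acid transporter SLC27A4 (entry S27A4) one of 1.08 ± 0.13 (SE). DESeq2 called 6 of these 12 entries and gave no adjusted p for 5, APOA1, APOB and SAR1B included, nor for APOA4. Liver makes APOA1 and APOB too.

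Of 13 tested genes of brush border structure 9 were higher in the pools and 1 was lower, beside 12.7% and 17.7% of all rows. The median log2 fold of the list was 1.71. MYO7B, a myosin of the links between microvillus tips, rose from 0.300 ± 0.129 to 2.57 ± 0.333 CPM, and the scaffold NHERF1 (entry NHRF1) from 94.1 ± 39.3 to 408 ± 120 CPM (SD, n = 10 and n = 4). CALML4 (entry CALL4), a calmodulin-like partner of MYO7B, had a log2 fold of 2.67 ± 0.40 (SE; edgeR adjusted p = 0.000272). PLS1 (entry PLSI), the plastin that bundles microvillus actin beside villin, went the other way, from 28.8 ± 17.6 to 0.328 ± 0.327 CPM, a log2 fold of -6.52 ± 0.83 (SE; edgeR adjusted p = 8.12e-05). Plastins are close paralogs whose reads may have been divided differently, and this was not tested.

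Hydrolases and transporters moved less. Of 6 tested hydrolases 2 were higher in the pools and 0 lower, beside 12.7% and 17.7% of all rows. Trehalase (TREH, entry TREA), which splits the sugar trehalose, had a log2 fold of 1.58 ± 0.43 (SE; edgeR adjusted p = 0.0117). The list median was -0.36, and 1 hydrolase was called against replicates 1 to 3 alone. Of 15 tested transporters 4 were higher and 0 lower, beside the same shares of all rows. Their median was 0.26, and 3 to 6 were called higher under the alternatives. The called transporters were the fructose carrier SLC2A5 (entry GTR5; log2 fold 3.64 ± 0.68, SE), the sterol importer NPC1L1 (entry NPCL1; 3.52 ± 0.75), the chloride exchanger SLC26A3 (entry S26A3; 3.02 ± 0.82) and the iron exporter ferroportin (SLC40A1, entry S40A1; 0.78 ± 0.18).

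Of 12 tested enterocyte transcription factors 3 were higher and 1 was lower in the pools, beside 12.7% and 17.7% of all rows. Their median log2 fold was 0.02. CREB3L3 (entry CR3L3), a factor of lipid metabolism in intestine and liver, had a log2 fold of 3.18 ± 0.35 (SE; edgeR adjusted p = 3.18e-05), HNF4G 2.19 ± 0.33 (SE; adjusted p = 0.00025) and PRDM1 0.71 ± 0.15 (SE; adjusted p = 0.00299). Between left and right, 0 entries of these 5 lists were called, and 10 of the 12 lipid absorption entries had a negative log2 fold of left over right, with a list median of -0.24 against 0.01 over all rows.

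**Figure D4:**
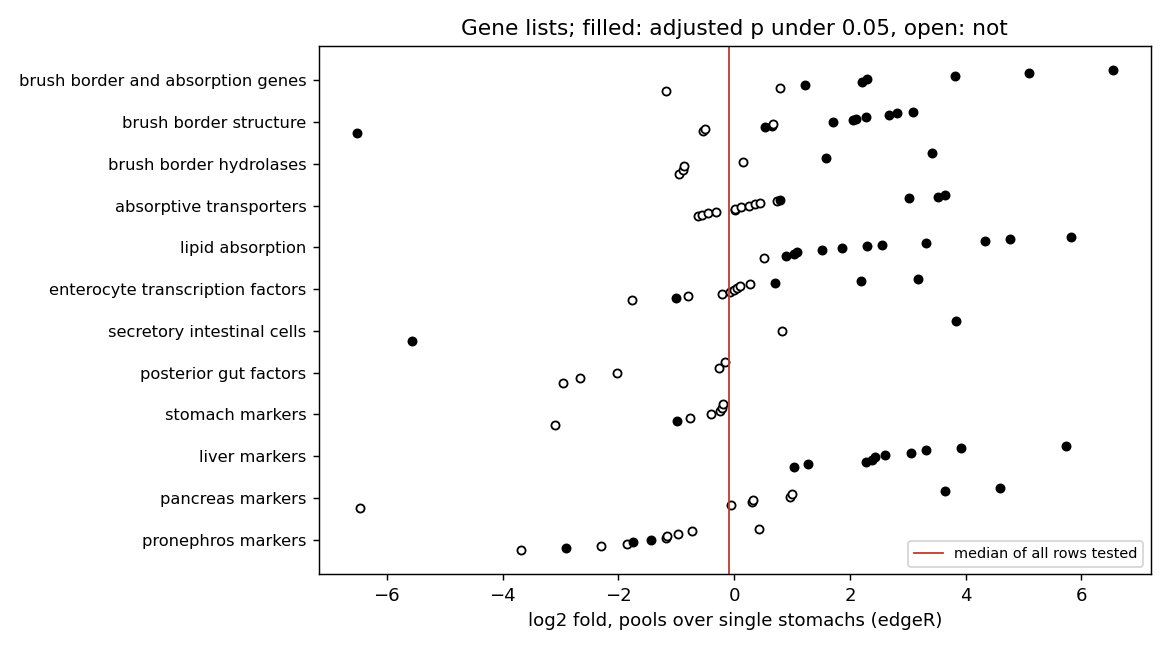
Log2 folds of pools over single stomachs from edgeR, 1 point per tested entry, for the 8 measured genes, 5 further lists of absorptive cells and 6 lists of other cell types, with the median of all rows tested as a line. All 10 liver markers and 11 of 12 lipid absorption entries are filled and to the right of the line, and all 5 posterior gut factors are open and to its left.

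Liver markers were higher in the pools as well. All 10 tested liver markers were higher in the pools, beside 12.7% of all rows, with a median log2 fold of 2.52. Their sum ran from 1630 to 10180 CPM in single stomachs and from 19140 to 26500 CPM in pools. Transferrin (TF, entry TRFE), the plasma iron carrier, went from 0.865 ± 0.487 to 44.9 ± 7.17 CPM (SD, n = 10 and n = 4; edgeR adjusted p = 5.91e-07), and SERPINA1 (entry A1AT), FGB (entry FIBB) and FGA (entry FIBA) had log2 folds of 3.06 ± 0.37, 2.60 ± 0.32 and 2.39 ± 0.32 (SE). Among single stomachs, right replicate 1 held the highest liver sum and also the highest APOA4, FABP1 and CDX2. The other measured genes peaked elsewhere: VIL1 in right replicate 2, LCT in left replicate 2, ANPEP in left replicate 1 and MEP1A in right replicate 3. FABP2 was highest in right replicate 5 and left replicate 6. The share of all rows that were highest in right replicate 1 was not counted. The part of liver tissue in the rise of the members called higher in the pools was not tested.

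Of 11 pronephros markers 0 were higher in the pools and 3, PAX8, OSR1 and SLC12A1 (entry S12A1), were lower, beside 17.7% of all rows. The summed level of the list ran from 115 to 444 CPM in single stomachs and from 59.7 to 117 CPM in pools. Of 7 stomach markers 0 were higher and 1, FOXA2, was lower, which is no larger a share than the 17.7% of all rows called lower. Pancreas markers had 2 of 8 higher, the digestive proenzymes CTRB1 and CPA1 (entry CBPA1), and 0 lower, beside 12.7% of all rows higher. CTRB1 and CPA1 reached at most 0.522 and 0.359 CPM in single stomachs. Both passed the filter on low counts only through the pools, so their calls are no independent support for a difference. Posterior gut factors had 0 of 5 called either way, and all 5 had negative log2 folds. Their sum was 1.63 to 9.61 CPM in replicates 1 to 3, 25.7 to 47.3 CPM in replicates 5 and 6, and 1.08 to 11.6 CPM in pools. The set with the higher FABP2 among single stomachs thus also had the higher posterior gut sum. Of all rows tested, 18.8% were higher in that set without overlap. The stomach sum separated the same sets the other way, at 192 to 440 CPM in replicates 1 to 3 and 72.2 to 167 CPM in replicates 5 and 6. CDX4, a caudal-type factor, was at 2.09 ± 2.73 CPM in single stomachs (SD, n = 10) and 0.269 ± 0.223 CPM in pools (SD, n = 4).

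For each gene the reviewed row of most similar profile was sought among 14952 rows with a mean of at least 1 CPM, as the root-mean-square difference of centred log2(CPM + 0.5) over the 14 libraries. The nearest rows were APOC2, an apolipoprotein, for APOA4 (difference 1.23, against an SD of 3.77 for APOA4 itself), angiotensinogen (AGT, entry ANGT) for FABP2 (0.48 against 1.82) and ketohexokinase (KHK) for FABP1 (0.27 against 1.13). Histidine ammonia-lyase (HAL, entry HUTH) was nearest to CDX2 (0.19 against 0.83), TMEM97 (entry TMM97) to VIL1 (0.33 against 1.66) and NIPSNAP1 (entry NIPS1) to LCT (0.27 against 0.96). VIL1 had a single-stomach median of 0.239 CPM, below the added 0.5, which flattens its contrast in this measure. Its log2 fold of pools over single stomachs in edgeR was 5.10, against 3.78 for TMEM97. For the low genes ANPEP and MEP1A the nearest rows were CCDC171 (entry CC171; 0.53 against 0.81) and POLH (0.23 against 0.40).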

How the data were processed

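The authors deposited raw read counts per human UniProt entry, whole numbers whose library totals differ. Bowtie, Bowtie2 2.1.0, DESeq, SAMtools 0.1.19 and Trimmomatic are named, per the submitters' processing notes, without role or order. Libraries were strand-specific per the labels' protocols. The deposited normalized values were not used. The rule that gave each read to a row, and its use of strand, could not be read from these sources.

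Rows passing filterByExpr (minimum count 10, total 15) were tested with edgeR 4.0.16 (quasi-likelihood, TMM, Benjamini-Hochberg over all rows, threshold 0.05) in R 4.3.3, with side and library source as terms. Rows low in single stomachs could pass this filter through the pools alone. The reviewed row of highest mean count stood for each entry. Standard errors are the log2 fold over the root of F. Members and lists (11 lists, 117 of 135 entries with a row) were chosen with earlier results of these data known. Named genes were the members, up to 4 called entries per list with the smallest p (otherwise the 2 of highest level), and the nearest rows; any further gene named (such as SOX2, GKN1 or FABP6) was picked with its values in view. Programs were tested on simulated counts. The lowest chi-square per degree of freedom between 2 libraries of a side was 16.5, so none was counted as a duplicate.

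Numbers in the titles, or a shared stem for replicates 1 and 2, paired left with right; pool numbers follow listing order and pair nothing. Deviations from group means correlated at 0.62, 0.64, 0.64, 0.77 and 0.85 in pairs 1, 2, 3, 5 and 6 (0.47, 0.25, 0.089, 0.46 and 0.46 within library sets). The first values also carry the split of replicates 1 to 3 from 5 and 6, which both sides share. Within sets, pairs 5 and 6 must have equal values, because only these pairs make up their set. By their titles, left and right of one number were treated as paired in the ratios of title pairs and in the fits with the replicate block. The main fits of sides and of pools had no pair term and took the libraries as independent, despite these correlations. Where pairs correlate, errors and p-values come out too small for pools over single stomachs and too large for the sides. In single-stomach libraries alone, 1294 of 22452 rows had an edgeR unadjusted p under 0.05 for side with the block, and 175 without it. Alternatives were other size factors, no filter, DESeq2 1.42.0, summed rows, other terms, the replicate block, subsets of libraries and each library left out; no scaling and reviewed rows only were added after seeing the data. Some genes that the rule names are not reported here.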

Additional observations from a re-analysis of the deposited data

Results flagged for a closer look

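In 16 groups of 5 single-stomach libraries, 8 genes on each side, 2 held a library far from the others by the ratio of its gap to the group's range. Chance gives this in about 5% of groups only if the values are normally distributed. The ratio was taken on CPM and not on a log scale, so skewed values can pass more often. APOA4 stood at 52.1 CPM in right replicate 1, against 0.267 to 6.33 CPM in the other right single-stomach libraries, and without that library the log2 fold of left over right went from -0.78 to 0.51, uncalled in both fits. VIL1 stood at 0.647 CPM in right replicate 2, on 15 reads, and without it the log2 fold went from -0.21 to 0.01, also uncalled.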

How the results depend on the processing

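The 6 members higher in the pools kept their calls in 14 of 14 fits without 1 library, and in the other alternatives, except that DESeq2 gave no adjusted p for APOA4 and called 5. Rows called in that comparison numbered 7082, and 5524 to 8396 under the alternatives. Under the alternatives other than leaving out 1 library, 1 to 2 hydrolases, 3 to 6 transporters and 6 to 11 lipid absorption entries were called higher in the pools. Without scaling 26.3% of calls were higher in the pools, against 41.7%, and the median log2 fold of all rows was -0.27 against -0.10. Left against right, 103 rows but 0 members were called by DESeq2 in single-stomach libraries with the replicate block, and the edgeR fits called 0 rows. With the replicate block over all libraries 0 members were called and FABP2 turned to -0.0452. Other uncalled folds of left over right also changed sign. Without the source term APOA4 was 0.10 and CDX2 0.0254. In single-stomach libraries alone LCT was -0.0998 and FABP2 -0.0487, with the block -0.10 and -0.20, and with DESeq2 -0.11 and -0.29. In pools alone APOA4 was 0.11, FABP1 0.0771 and CDX2 0.35. Leaving out 1 library moved the folds from -0.45 to 0.0104 for VIL1, -0.0935 to 0.11 for LCT, -1.19 to 0.51 for APOA4, -0.17 to 0.26 for FABP2, -0.30 to 0.0013 for FABP1 and -0.23 to 0.0394 for CDX2, and the fold of pools over single stomachs from -0.61 to 1.18 for MEP1A. The product term of side and source called 144 rows by DESeq2 and 0 to 1589 when 1 library was left out, the latter without left pool 1, but 0 members. Its value for VIL1 was 0.0026 by DESeq2. It ran from -0.82 to 0.56 for VIL1, -0.55 to 1.87 for APOA4, -0.0125 to 0.68 for FABP2, -0.0269 to 0.73 for FABP1, -5.52 to 3.20 for ANPEP and -5.94 to 2.17 for MEP1A. The causes were not tested. MEP1A passed the filter in 11 of 14 of those fits, and the depth of the pools limits what can be seen of it and of ANPEP.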

Other observations

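FABP6, the bile acid binding protein of the ileum and a relative of FABP1 and FABP2, was at 0 to 27.7 CPM in single stomachs, with a median of 0.0622 CPM, and at 4.85 to 196 CPM in the pools (edgeR log2 fold 5.82 ± 1.47, SE; adjusted p = 0.00815). Too few single-stomach libraries reached the level of the filter on low counts, so FABP6 was tested only because of its levels in the pools. Its call is therefore no independent support for a difference. Secretory markers of the intestine did not move as 1 group. FCGBP, a mucus-associated protein, was at 1113 ± 468 CPM in single stomachs (SD, n = 10) and 32.7 ± 56.0 CPM in pools (SD, n = 4; edgeR log2 fold -5.57 ± 1.06, SE; adjusted p = 0.00142), while ATOH1, the factor of secretory cell fate, was at 0.0648 ± 0.0451 and 1.01 ± 0.898 CPM (edgeR log2 fold 3.83 ± 0.62, SE; adjusted p = 0.000444). ATOH1 reached at most 0.134 CPM in any single-stomach library. It passed the filter on low counts only through the pools, so its call is no independent support for a difference. FABP6 and the order of its libraries were looked at after its values were seen.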
